A study of Mus musculus with 8 samples.

Results

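The genes described here are Klf9 and 9 other Krüppel-like factors, Klf2, Klf3, Klf4, Klf6, Klf7, Klf10, Klf11, Klf12 and Klf13. They were taken by symbol, and all 10 were found among the 55341 gene symbols of each count file. RNA was measured in nuclei of GABAergic neurons, the inhibitory neurons of the brain, sorted from the cortex of juvenile mice, with 1 library per mouse. In every mouse a nuclear fluorescent reporter was limited to GABAergic neurons by Cre/loxP recombination, and the sources used here give neither the promoter that drove Cre nor the strain, sex or exact age. In every mouse, too, the mother had been treated during pregnancy with propylthiouracil (PTU), which blocks the synthesis of thyroid hormone. The 4 PTU mice, numbered 9 to 12, were left hypothyroid. The 4 PTU+TH mice, numbered 13 to 16, were made hypothyroid likewise and received thyroid hormone (TH) by intraperitoneal injection 24 h before the brain was collected, at a dose not given in the sources used here. No group with normal thyroid function was analysed here, so each comparison is of hypothyroid mice with and without a day of TH.

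Krüppel-like factors (KLFs) are zinc finger proteins that bind GC-rich and CACCC sequences in the control regions of genes. They are commonly sorted by the cofactors they recruit. KLF3 and KLF12 bind the corepressor CtBP, KLF9, KLF10, KLF11 and KLF13 bind the corepressor SIN3A, and KLF2, KLF4, KLF6 and KLF7 mostly act as activators. KLF9 is a textbook target of the TH receptor and of the glucocorticoid receptor in the brain, and in neurons KLF family members are known for setting how far axons grow, with KLF6 and KLF7 promoting growth and KLF4 and KLF9 limiting it.

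RefSeq promoter windows of build GRCm38.p6 were matched to 9 of the 10 genes. The 250 bases before the RefSeq gene start are shown for the pair of genes that rose with TH, Klf9 and Klf3, and for Klf13, the close relative of Klf9 that was not called. The window of Klf9 lies on the plus strand of chromosome 19 (chr19:23140976-23141225), that of Klf3 on the plus strand of chromosome 5 (chr5:64803271-64803520) and that of Klf13 on the minus strand of chromosome 7 (chr7:63938916-63939165). Gene positions given further on are from GENCODE M21 (GRCm38), whose starts can differ from those of RefSeq. The GENCODE start of Klf3, 64803388, lies inside its window. Sequences run 5′ to 3′ on the strand of the gene, and capitals mark the GC box GGGCGG and the CACCC box CACCC, each sought on both strands, where neighbouring matches can share bases.
Klf9: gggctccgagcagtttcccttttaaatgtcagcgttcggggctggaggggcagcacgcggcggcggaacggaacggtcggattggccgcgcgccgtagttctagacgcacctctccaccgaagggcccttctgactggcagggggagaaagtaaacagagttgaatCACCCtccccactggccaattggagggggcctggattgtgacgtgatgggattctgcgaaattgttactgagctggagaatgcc
Klf3: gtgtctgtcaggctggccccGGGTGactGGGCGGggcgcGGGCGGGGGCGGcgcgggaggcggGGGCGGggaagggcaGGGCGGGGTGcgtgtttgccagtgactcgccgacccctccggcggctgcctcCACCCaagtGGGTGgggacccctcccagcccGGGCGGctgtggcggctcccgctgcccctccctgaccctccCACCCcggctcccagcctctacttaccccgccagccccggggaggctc
Klf13: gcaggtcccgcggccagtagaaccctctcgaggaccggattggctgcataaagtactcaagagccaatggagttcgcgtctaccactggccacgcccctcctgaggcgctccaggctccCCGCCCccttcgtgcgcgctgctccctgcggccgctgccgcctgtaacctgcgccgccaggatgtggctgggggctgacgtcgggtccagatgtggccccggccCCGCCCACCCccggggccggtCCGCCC

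The Klf9 window held 1 CACCC box, which begins 84 bases before the start, and 0 GC boxes, at a GC content of 59.6%. The Klf3 window held 6 GC boxes and 5 CACCC boxes at a GC content of 78.4%, and the Klf13 window held 3 GC boxes and 1 CACCC box at 71.6%. Among all 32851 windows of the same length, 32.7% held a GC box and 52.0% a CACCC box. The TH receptor binds repeats of the half-site AGGTCA. That half-site, again on both strands, was present in 0 of the 9 KLF windows and in 14.0% of all windows. With only 9 windows, 0 is not far from that share. By the GENCODE positions, the windows of Klf12 (chr14:100149797-100150046) and Klf7 (chr1:64121390-64121639) lie inside the gene body. The direct repeat with a spacing of 4 bases, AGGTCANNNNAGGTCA, was found in 5 of all windows (0.0152%) and in 0 of the KLF windows. Only these letters in these windows were sought, and more distant sequence was not used here.

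Klf9 and Klf3 were higher in PTU+TH, and the other 8 KLFs did not pass the test. Over all 17355 genes tested, edgeR's quasi-likelihood test called 368 (2.12%) at a Benjamini-Hochberg adjusted p below 0.05, of which 258 (1.49%) were higher with TH and 110 (0.634%) lower. Of the 10 KLFs, 2 were called higher and 0 lower, and all 10 passed the filter on low counts. At an unadjusted p under 0.05 the same test gave 2 higher and 1 lower of the 10, against 12.8% of all genes tested (6.59% higher and 6.17% lower), a share against which the later unadjusted counts are to be read. DESeq2 and limma voom each called 2 higher and 0 lower. The 2 groups of mice did not overlap for 2 of the 10 KLFs, and for 8.71% of all genes tested. The median log2 fold change of PTU+TH over PTU (log2FC) was -0.045 for the 10 KLFs and -0.0066 for all genes tested. Abundance is given as CPM, the share of a gene in the counts of its library after TMM scaling. CPM allows a gene to be compared between libraries but not with a gene of another length.

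**Figure D1:**
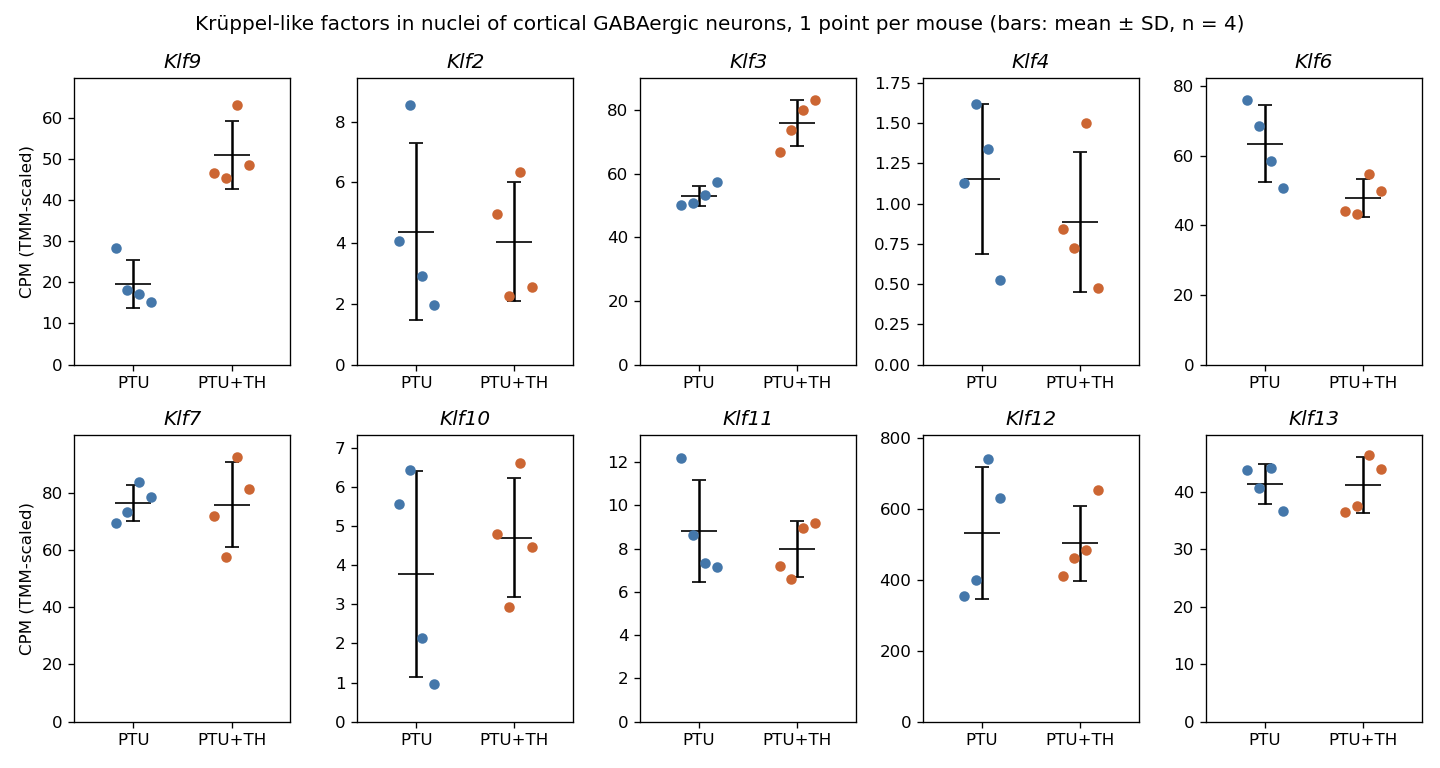
CPM of the 10 KLFs in each library, with PTU mice in blue and PTU+TH mice in orange, 1 point per mouse and bars for mean ± SD (n = 4). Only in the Klf9 and Klf3 panels do all 4 orange points lie above all 4 blue points, and for Klf9 these are 45.3 to 63.1 against 15.1 to 28.3 CPM.

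Among the factors that recruit SIN3A, Klf9 (chromosome 19, 23141226 to 23168134, plus strand, GRCm38) stood apart. It was at 28.3, 18.1, 17.1 and 15.1 CPM in PTU mice 9, 10, 11 and 12, and at 46.6, 45.3, 63.1 and 48.6 CPM in PTU+TH mice 13, 14, 15 and 16. The groups did not overlap, and within each group 1 mouse was well above the other 3, mouse 9 in PTU and mouse 15 in PTU+TH. The group means were 19.6 ± 5.89 and 50.9 ± 8.26 CPM (SD, n = 4), a 2.59-fold difference (log2FC 1.37, SE 0.18, adjusted p 0.00223 in edgeR). By p-value Klf9 ranked 59 among the 17355 genes. Without mouse 9 its log2FC was 1.61 and without mouse 15 it was 1.25 (adjusted p 3.41e-05 and 0.00871 in edgeR). Counts of Y-linked genes were present in all 4 PTU mice and in PTU+TH mice 13 and 14, and absent in mice 15 and 16. Klf9 was called with presence of these counts as a covariate (log2FC 1.22, adjusted p 0.0321 in edgeR), and was not called in the 6 libraries that have them (log2FC 1.23, adjusted p 0.058 in edgeR). The counts are absent only within PTU+TH, so both fits set PTU+TH mice 13 and 14 against the PTU mice. They are therefore not separate checks.

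Klf13 (chromosome 7, 63886351 to 63938915, minus strand), the closest relative of Klf9, ranged from 36.7 to 44.2 CPM without TH and from 36.5 to 46.5 CPM with TH. Its gene body is 87.0% free of other annotated genes. The ranges coincided almost entirely (log2FC -0.0089, SE 0.11, adjusted p 0.992 in edgeR). The ratio of Klf9 to Klf13 CPM within a library does not depend on the scaling, and it was chosen for display after the values were seen. It was 0.645, 0.444, 0.386 and 0.411 in PTU mice 9 to 12 and 1.28, 1.21, 1.36 and 1.10 in PTU+TH mice 13 to 16. Every PTU+TH library lay above every PTU library. The mean ratio was 0.471 ± 0.118 in PTU and 1.24 ± 0.107 in PTU+TH (SD, n = 4). The ratio is given as a description without a p-value, since the pair was chosen for its values.

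Klf10 and Klf11 are known as early genes induced by transforming growth factor beta. Klf10 (chromosome 15, 38291463 to 38300706, minus strand) was at 5.57, 6.44, 2.13 and 0.962 CPM in PTU mice 9 to 12 and at 4.81, 2.92, 6.63 and 4.47 CPM in PTU+TH mice 13 to 16. The PTU mice fell into a high and a low pair, so the spread within the group was larger than the difference between groups (log2FC 0.30, SE 0.49, adjusted p 0.897 in edgeR). Klf11 (chromosome 12, 24651274 to 24662789, plus strand) was at 8.82 ± 2.35 CPM without TH and 7.99 ± 1.28 CPM with TH (SD, n = 4), with mouse 9 highest at 12.2 CPM. It was not called (log2FC -0.15, SE 0.20, adjusted p 0.859 in edgeR).

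Of the factors that recruit CtBP, Klf3 (chromosome 5, 64803388 to 64832901, plus strand) was at 50.3, 50.7, 53.4 and 57.3 CPM in PTU mice 9 to 12 and at 66.7, 73.8, 79.9 and 83.1 CPM in PTU+TH mice 13 to 16. The groups did not overlap, which held with PTU+TH above PTU for 4.68% of all genes tested. Klf3 rose 1.43-fold, from 52.9 ± 3.25 to 75.9 ± 7.26 CPM (SD, n = 4; log2FC 0.52, SE 0.093, adjusted p 0.00972 in edgeR). It was not called with presence of Y-linked counts as a covariate, nor in the 6 libraries with such counts (log2FC 0.41 in both, adjusted p 0.0978 and 0.192 in edgeR). As for Klf9, both fits set PTU+TH mice 13 and 14 against the PTU mice. In the Klf3 gene body, 92.0% of bases are free of other annotated genes.

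Klf12 (chromosome 14, 99870632 to 100284679, minus strand), the other factor of this class, spans 414 kb, of which 92.2% is free of other annotated genes. It was at 354, 401, 743 and 632 CPM in PTU mice 9 to 12 and at 412, 462, 485 and 654 CPM in PTU+TH mice 13 to 16. PTU mice 9 and 10, the high pair for Klf10, were the low pair for Klf12. Klf12 was not called (log2FC -0.081, SE 0.23, adjusted p 0.95 in edgeR).

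**Figure D2:**
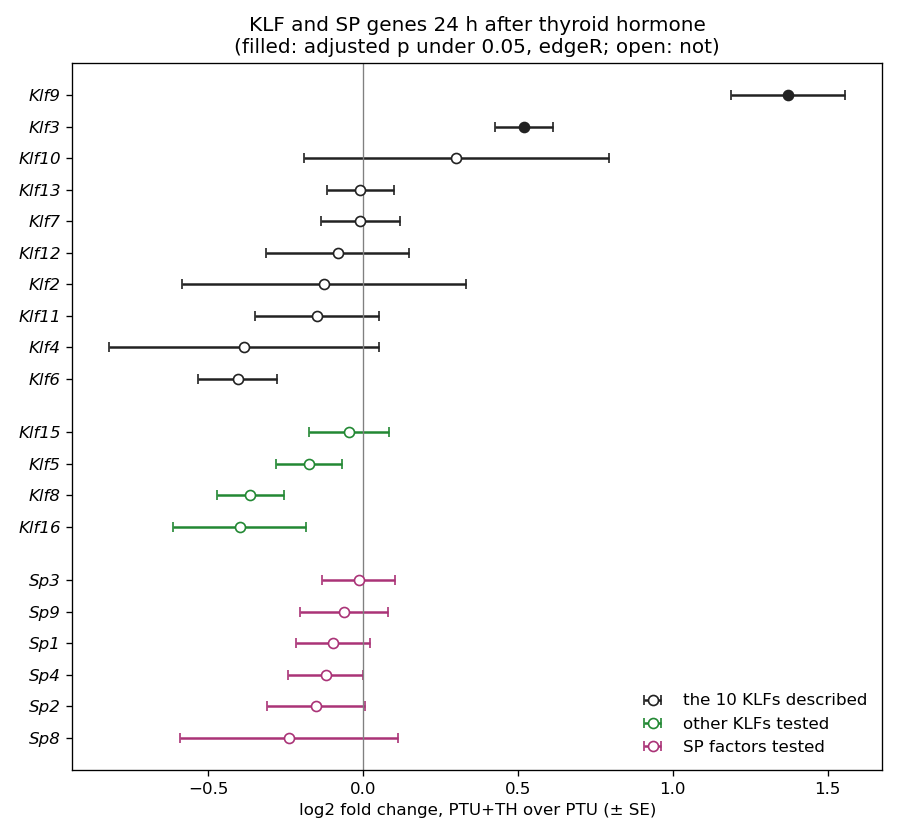
Log2 fold change of PTU+TH over PTU with SE for the 10 KLFs (black), the other KLFs tested (green) and the SP factors tested (magenta), from edgeR. Filled points mark an adjusted p under 0.05: Klf9 at 1.37 and Klf3 at 0.52 are filled, and Klf6 at -0.40 is the lowest of the black points.

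In the class of activators, Klf6 (chromosome 13, 5861482 to 5870394, plus strand), which promotes axon growth, had the lowest fold change of the 10. It was at 75.8, 68.5, 58.4 and 50.7 CPM in PTU mice 9 to 12 and at 44.0, 43.1, 54.8 and 49.8 CPM in PTU+TH mice 13 to 16. The highest PTU+TH mouse lay above the lowest PTU mouse, so the groups overlapped. Klf6 had an unadjusted p of 0.0072 but did not pass over all genes (log2FC -0.40, SE 0.13, adjusted p 0.151 in edgeR). It passed under 1 of 21 alternative settings, with the summed markers of excitatory neurons as a covariate, chosen after the data were seen (adjusted p 0.0248 in edgeR). Klf7 (chromosome 1, 64029447 to 64122282, minus strand), which acts alongside Klf6 in axon growth, was at 76.3 ± 6.24 CPM without TH and 75.8 ± 14.8 CPM with TH (SD, n = 4; log2FC -0.0092, SE 0.13, adjusted p 0.992 in edgeR). Its gene body is 83.1% free of other annotated genes.

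Klf2 and Klf4 are best known from endothelium, where they respond to blood flow, and Klf4 also as a pluripotency factor. Klf2 (chromosome 8, 72319033 to 72321656, plus strand) was at 4.08, 8.54, 2.92 and 1.97 CPM in PTU mice 9 to 12 and at 4.98, 2.27, 6.36 and 2.57 CPM in PTU+TH mice 13 to 16. The groups overlapped throughout (log2FC -0.13, SE 0.46, adjusted p 0.963 in edgeR). Klf4 (chromosome 4, 55527143 to 55532466, minus strand) had between 10 and 43 counts per library, which were the fewest of the 10 genes. It stood at 1.15 ± 0.464 CPM without TH and 0.885 ± 0.437 CPM with TH (SD, n = 4; log2FC -0.38, SE 0.44, adjusted p 0.816 in edgeR). For both genes the difference between the groups was smaller than its SE.

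Markers of other cells differed widely between libraries. The pan-GABAergic markers summed to between 2355 and 2801 CPM without TH and between 2228 and 2459 CPM with TH, and Dlx1 was listed at 0 in all libraries. The 8 endothelium markers, none of them at 0 in any library, summed to 58.2, 166, 47.7 and 36.3 CPM in PTU mice 9 to 12 and to 88.9, 37.8, 122 and 52.3 CPM in PTU+TH mice 13 to 16. The 4 libraries highest in Klf2, those of mice 10, 15, 13 and 9 in that order, were also the 4 highest in endothelium markers, in the same order. The 6 excitatory neuron markers, with none at 0, summed to 104, 98.9, 54.1 and 36.4 CPM in PTU mice 9 to 12 and to 93.7, 44.5, 118 and 59.9 CPM in PTU+TH mice 13 to 16. The 4 libraries highest in these markers were also the 4 highest in Klf10, those of mice 9, 10, 13 and 15. These same 4 libraries were highest in the endothelium, excitatory, pericyte, astrocyte and oligodendrocyte precursor sums and in both Klf2 and Klf10, so neither match is particular to a cell type. Klf12 was lowest in mice 9, 10 and 13. Of the 8 endothelium and 6 excitatory markers, 0 were called in edgeR, DESeq2 or limma voom, and 0 had an unadjusted p under 0.05 in edgeR. What part these cells have in the values of Klf2, Klf10 and Klf12 was not tested. Fewer cells of a type and less RNA per cell cannot be told apart in such libraries.

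**Figure D3:**
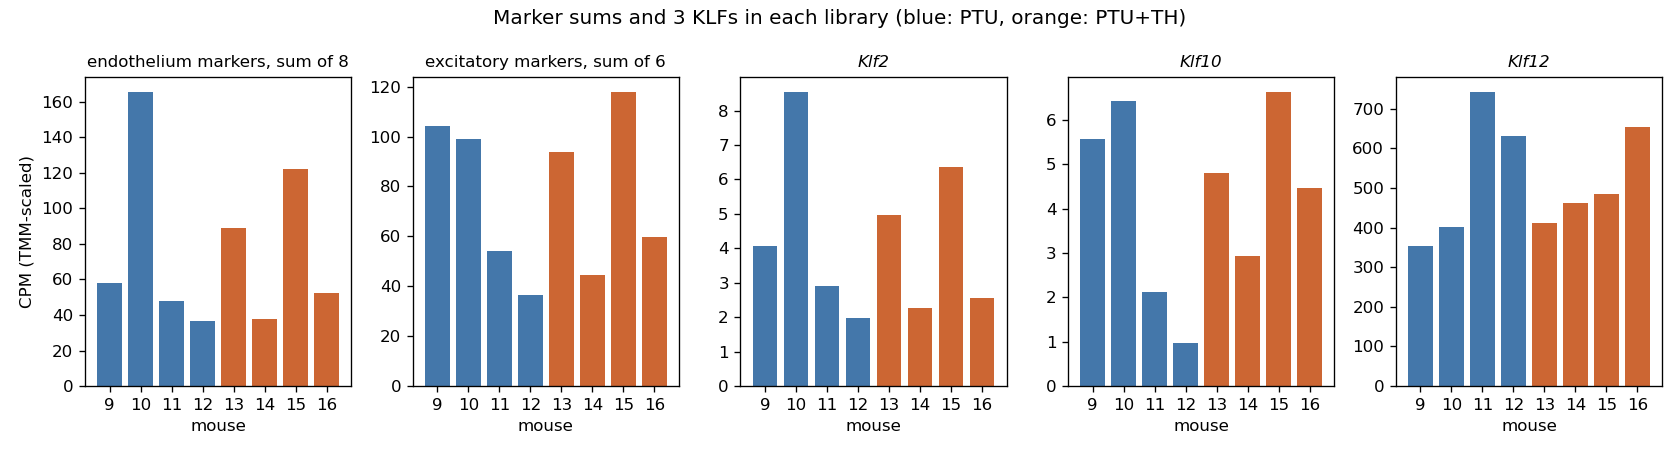
Bars give, for each mouse (PTU blue, PTU+TH orange), the summed CPM of 8 endothelium markers and of 6 excitatory neuron markers, and the CPM of Klf2, Klf10 and Klf12. Mouse 10, at 166 CPM for endothelium markers, also has the highest Klf2 at 8.54 CPM, and Klf10 is at 0.962 CPM in mouse 12, where the excitatory markers sum to 36.4 CPM.

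The other markers were pericyte, astrocyte, oligodendrocyte, oligodendrocyte precursor and microglia lists with 4, 6, 6, 2 and 6 genes. Their sums ran from 16.5 to 91.2, 125 to 241, 96.2 to 123, 4.94 to 15.4 and 49.9 to 69.4 CPM in PTU, and from 18.4 to 67.6, 127 to 366, 94.2 to 193, 5.67 to 19.5 and 59.5 to 77.1 CPM in PTU+TH. Each range overlapped its counterpart. In edgeR, DESeq2 and limma voom 0 of these genes were called, and in edgeR 2 had an unadjusted p under 0.05, Mobp of oligodendrocytes and C1qa of microglia, both with a positive log2FC (1.30 and 1.09) and named after their values were seen. Gfap and P2ry12 were listed at 0 in all libraries. Gfap, P2ry12 and Dlx1 lie whole inside another annotated gene. The labels give no sex, litter or processing date.

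Levels of different KLFs were set side by side per kilobase of gene body, because reads appear to have been counted there. All 591 protein-coding genes that lie inside another gene but touch no exon of another gene were listed at 0 in all 8 libraries, a pattern that counting over whole gene bodies would give. Of protein-coding genes that overlap none, 21.5% were listed at 0. In PTU, Klf6 was highest at 7.11 ± 1.24 CPM per kb of gene body, followed by Klf3 at 1.79 ± 0.110 (SD, n = 4). Klf2 (1.67), Klf12 (1.29), Klf7 (0.822), Klf13 (0.787), Klf11 (0.766), Klf9 (0.729), Klf10 (0.408) and Klf4 (0.216 CPM per kb) followed. Klf6 lay apart from Klf3 in all libraries, and each later neighbour in that order overlapped the next. In PTU+TH, Klf9 took place 3 at 1.89 ± 0.307 CPM per kb (SD, n = 4), after Klf6 at 5.38 and Klf3 at 2.57, and its range overlapped those of Klf3 and of Klf2. Only Klf6 above Klf3 and Klf10 above Klf4 were neighbours with separate ranges there. Per kilobase of exon in place of gene body, Klf12 was highest in both groups, and Klf9 took place 6 in PTU and place 3 in PTU+TH, at 4.08 and 10.6 CPM per kb of exon.

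**Figure D4:**
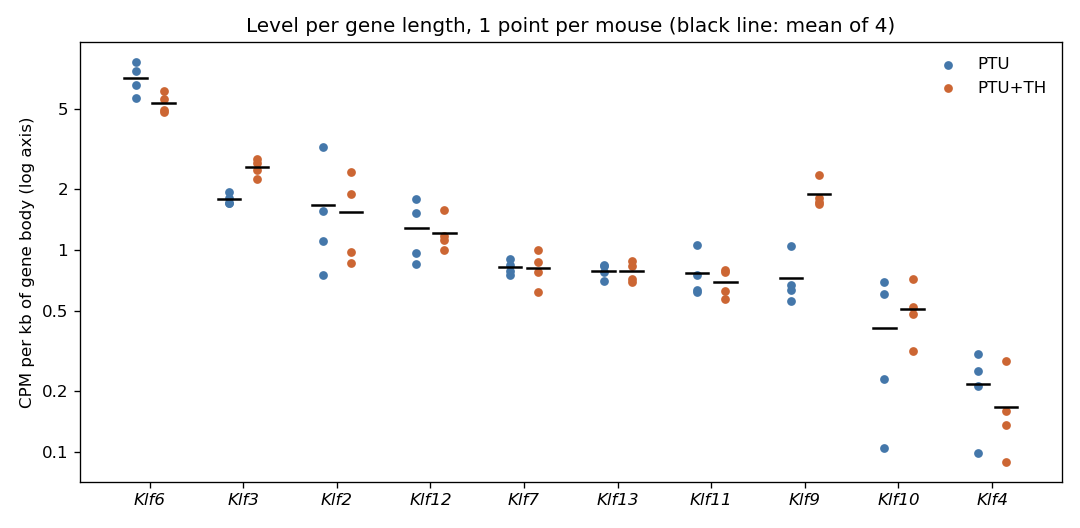
CPM per kb of gene body, on a log axis, for the 10 KLFs ordered by their PTU mean, with 1 point per mouse and a black line at the mean of 4. Klf9 has rank 8 in PTU (0.729) and rank 3 in PTU+TH (1.89), while Klf6 is highest in both groups.

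The remaining KLFs and the SP factors, which share the zinc finger domain and bind GC boxes, had 0 called genes in edgeR, DESeq2 and limma voom. Of 7 other KLFs, 4 were tested, and their log2 fold changes ran from -0.40 to -0.045. Klf5, the one with the most counts, was at log2FC -0.18 (adjusted p 0.566 in edgeR). Klf8, which also recruits CtBP, had the only unadjusted p under 0.05 among them. It stood at 41.7 ± 4.19 CPM without TH and 32.4 ± 3.25 CPM with TH (SD, n = 4; log2FC -0.36, SE 0.11, adjusted p 0.121 in edgeR). Klf1, Klf14 and Klf17 had too few counts to be tested. Of 9 SP factors, 6 were tested, with log2 fold changes from -0.24 to -0.015 and 0 at an unadjusted p under 0.05. Sp3 and Sp4, with the most CPM among them, were at log2FC -0.015 and -0.12 (adjusted p 0.985 and 0.783 in edgeR).

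The cofactors that KLFs recruit were compared as well. Of 12 corepressor and coactivator genes 11 were tested, and 0 were called or had an unadjusted p under 0.05 in edgeR, with 0 called by DESeq2 and limma voom. Their median log2 fold change was -0.0035, and they ran from -0.11 to 0.080. Hdac3, a histone deacetylase, and Ncor1, the corepressor that unliganded TH receptors hold on DNA, were the most abundant by CPM (adjusted p 0.846 and 0.949 in edgeR). Sin3a, the partner of Klf9, was at log2FC -0.052 and Ctbp1, the partner of Klf3, at 0.020 (adjusted p 0.961 and 0.978 in edgeR), values chosen because of these partners.

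Among 9 genes linked to KLFs in axon growth and survival, 8 were tested and 0 called in edgeR and limma voom, against 1 lower in DESeq2. That gene, L1cam, a cell adhesion molecule of growing axons, had 233 to 288 CPM in the PTU libraries and 163 to 201 CPM in the PTU+TH libraries. These groups did not overlap (log2FC -0.44, SE 0.11, adjusted p 0.0522 in edgeR), and 4.03% of all genes tested had PTU+TH below PTU in this way. Dusp14, a phosphatase gene described as a KLF9 target, was at 6.65 ± 1.78 CPM without TH and 9.52 ± 2.81 CPM with TH (SD, n = 4; log2FC 0.51, adjusted p 0.401 in edgeR). Ntrk2, a neurotrophin receptor gene and the member with the most CPM, was at log2FC -0.054 (adjusted p 0.948 in edgeR). Dusp14 and Gap43 were picked after their values were seen, and Gap43 had a log2 fold change of -0.32 (adjusted p 0.401 in edgeR). The immediate early genes, a class to which several KLFs belong in stimulated cells, had 0 called in edgeR, DESeq2 and limma voom among 12 tested and 2 lower at an unadjusted p under 0.05, Egr2 and Nr4a1. Their median log2 fold change was -0.063, and Nr4a1 and Dusp1, the most abundant by CPM, were at log2FC -0.27 and -0.027 (adjusted p 0.244 and 0.978 in edgeR).

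Genes of the hormone pathways that reach Klf9 were listed with earlier results of these data known. Of 12 TH-responsive genes beside Klf9, 6 were called higher and 0 lower, against 1.49% and 0.634% of all genes tested, with a median log2 fold change of 0.76. Camk4 and Stard4, named after their values were seen, had a negative log2FC of -0.26 each (unadjusted p 0.0349 and 0.198, adjusted p 0.331 and 0.665 in edgeR). Hr, a corepressor gene and TH receptor target, differed most, at 2.22, 1.81, 2.13 and 1.05 CPM in PTU mice 9 to 12 and 27.1, 26.3, 28.5 and 24.7 CPM in PTU+TH mice 13 to 16 (adjusted p 6.59e-07 in edgeR). The other 5 were Dbp, Itga7, Flywch2, Sema7a and Cntn2, with log2 fold changes from 0.50 to 1.16. In the 6 libraries with Y-linked counts, Dbp, Cntn2 and Flywch2 were not called (adjusted p 0.102, 0.0741 and 0.0508 in edgeR).

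Of 12 glucocorticoid-responsive genes, 1 was called higher and 0 lower in edgeR, with a median log2 fold change of -0.092. The called gene was Nr3c1, which encodes the glucocorticoid receptor itself. It was at 47.8, 50.1, 40.6 and 41.4 CPM in PTU mice 9 to 12 and at 76.7, 84.2, 86.4 and 82.8 CPM in PTU+TH mice 13 to 16. The groups lay far apart (log2FC 0.88, SE 0.093, adjusted p 0.000236 in edgeR). Sgk1, a kinase gene of this list, was above PTU in every PTU+TH library, with 148 to 181 against 198 to 228 CPM. Groups lay apart in this direction for 4.68% of all genes tested. Sgk1 did not pass (log2FC 0.34, adjusted p 0.111 in edgeR), except in DESeq2 and with the excitatory markers as a covariate. Fkbp5 and Tsc22d3, of the same list, were at log2FC -0.17 and 0.13 (adjusted p 0.568 and 0.914 in edgeR). These and Sgk1 were picked after their values were seen.

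The genes with a pattern most like that of Klf9 were sought by the root mean square difference of log2 CPM, centred on the mean of the 8 libraries, over 12816 candidates. They were Hopx (0.196), Lrrc55 (0.220), Arl4d (0.221), Gpr139 (0.223) and Fam198b (0.233 log2 units), against a median of 0.782 for all candidates. Since Klf9 differs between the groups, genes chosen in this way do too. The choice used all 8 libraries, so it also favours a shared peak within a group, such as that of mouse 9. The values of these genes are a description. Hopx, a gene of a small homeodomain protein, had 1.77 to 3.28 CPM without TH and 5.23 to 9.45 CPM with TH, with mouse 9 highest in PTU and mouse 15 highest in PTU+TH, as for Klf9. Lrrc55 encodes an auxiliary subunit of a potassium channel, and mouse 9 was again the highest PTU library at 2.91 against 1.62 to 2.18 CPM. Arl4d, of the ADP-ribosylation factor-like GTPases, had 4.16 to 7.25 CPM without TH and 9.49 to 11.8 CPM with TH. Gpr139, an orphan G protein-coupled receptor, had 2.82 to 4.99 CPM without TH and 6.70 to 9.72 CPM with TH. All 5 had fewer counts than Klf9. Among the KLFs themselves Klf3 was nearest to Klf9, at 0.539 log2 units and place 407 of the candidates, and Klf13 was at 0.739 and place 4284.

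**Figure D5:**
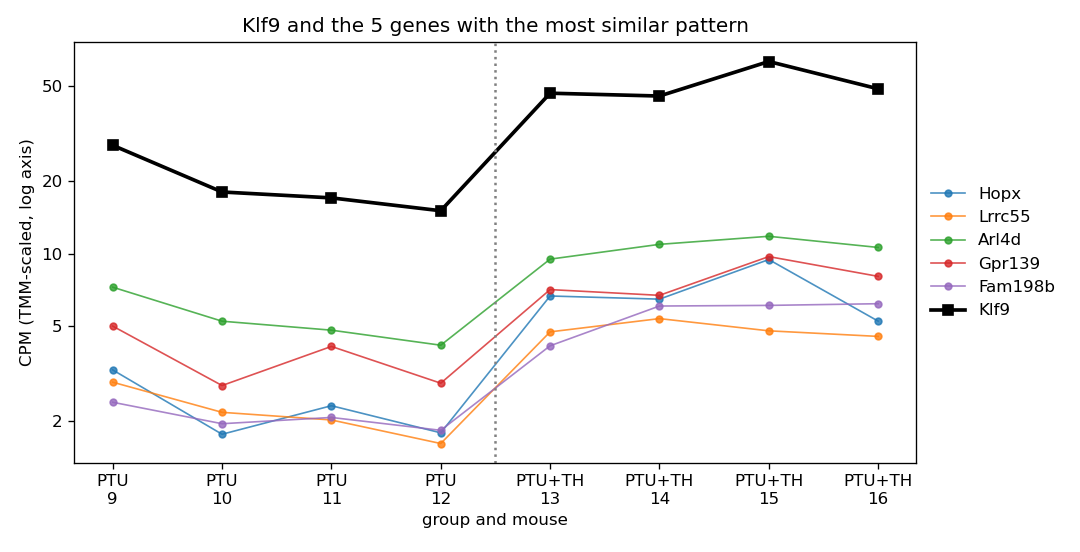
CPM, on a log axis, of Klf9 (black squares) and of the 5 genes with the nearest pattern, by group and mouse, where lines only join the points of a gene. All 6 genes are highest among PTU libraries in mouse 9, with Klf9 at 28.3 CPM there and Arl4d at 7.25 CPM. The choice of genes by likeness over all libraries favours such a shared peak.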

How the data were processed

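Each library has 1 file of read counts by gene symbol, not normalized, as the authors deposited it. Bowtie2 2.5.3 and the builds mm10 and GRCm38 are named in the submitters' processing notes, and the counting program, annotation, strand and treatment of introns are not given in the sources used here. Per the labels' protocols, cDNA was made with SMART-Seq v4 and libraries with Nextera XT. All 55341 symbols are those of GENCODE M21 (GRCm38), which gave positions and lengths. Library totals ran from 21762810 to 29084071 counts, with a two-sided exact permutation p of 1 between groups. Chi-square per degree of freedom was at least 8.38 in each of 12 same-group pairs, far above sampling noise. In PTU it was 18.6 for mice 9 and 10 and 8.89 for mice 11 and 12, against 29.7 to 72.6 across these pairs. In PTU+TH it was 8.38 for mice 13 and 14 and 10.6 for mice 15 and 16, against 16.4 to 24.8 across them. The mice of each group thus fell into pairs, and the cause was not tested.

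Counts were fitted over all genes kept by filterByExpr with edgeR 4.0.16 in R 4.3.3 (TMM, robust quasi-likelihood test, group as the only term, Benjamini-Hochberg over 17355 genes). Alternatives were RLE, upper quartile and library-total scaling, DESeq2 1.42.0, limma 3.58.1 (voom), 2 filters, 2 thresholds, Y-linked genes, marker covariates and leaving out each library. In simulated data for PTU+TH against PTU with 17355 genes, the test recovered 28% of 200 genes given a log2 change of 0.58 and 68% at a log2 change of 1. The KLFs and the gene lists were chosen with earlier results of these data known. All 10 KLFs are named, with called members of each list or else its 2 most abundant, and the 5 genes nearest to Klf9 with a mean of at least 1 CPM. P-values measure the spread between these mice only.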

Additional observations from a re-analysis of the deposited data

Results flagged for a closer look

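A search for 1 library lying away from the remaining 3 of its group covered 60 groups of values, with the gap to the next library divided by the full range. It found 3, the number that a chance rate of 5% gives. Fam198b stood at 4.13 CPM in PTU+TH mouse 13, while the remaining 3 lay between 6.05 and 6.19 CPM (0.934). The summed pan-GABAergic markers in PTU mouse 9 were at 2801 CPM against 2355 to 2413 CPM (0.87). The summed endothelium markers in PTU mouse 10 were at 166 CPM against 36.3 to 58.2 CPM (0.831), and Klf2 was also highest in that library. None of the 10 KLFs had such a library by this measure.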

How the results depend on the processing

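No paired analysis was possible because no mouse number occurs in both groups. Of 10 KLFs, 2 were called under 18 of 21 alternatives and 2 in each fit without a library. The count was 1 with Y-linked counts as a covariate, 0 in the 6 libraries with Y-linked counts, which hold fewer mice, and 3 with the excitatory markers as a covariate, which like the endothelium covariate was chosen after seeing the data. Klf9 had a log2 fold change of 1.23 in those 6 libraries and from 1.25 to 1.61 without single libraries, and Klf3 from 0.47 to 0.58 (edgeR adjusted p from 0.0102 to 0.0443). Of the 8 KLFs that were not called, Klf4 (-0.75 to -0.16) and Klf6 (-0.50 to -0.30) kept their direction without single libraries, and the other 6 changed it, over ranges of -0.43 to 0.43 for Klf2, -0.12 to 0.10 for Klf7, -0.015 to 0.69 for Klf10, -0.24 to 0.055 for Klf11, -0.23 to 0.12 for Klf12 and -0.072 to 0.047 for Klf13. With upper quartile scaling Klf7 was at 0.0071 and Klf13 at 0.0061, and with the excitatory covariate Klf12 was at 0.024. Over all genes the count of 368 became 723 with DESeq2, 601 and 145 at thresholds of 0.1 and 0.01, 58 in the 6 libraries, 574 with the excitatory covariate and 129 with the Y-linked one, and from 182 (without mouse 15) to 499 (without mouse 9) without single libraries. It was 233, 238, 227 and 209 without mice 12, 13, 14 and 16. For the covariates and DESeq2 the cause was not tested. The axon growth list had 1 called gene with upper quartile scaling, DESeq2, both other filters, a threshold of 0.1 and the excitatory covariate, and from 0 to 1 without single libraries (1 without mouse 11). The TH-responsive list had 3 in the 6 libraries, and the glucocorticoid list 2 with DESeq2 and the excitatory covariate. The same 5 genes were nearest to Klf9 at a prior count of 0.5 in place of 2. Scaling moved the median of all genes to -0.028 at most.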
